A study of Rattus norvegicus with 21 samples.

Results

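The 8 genes described here are members of the Notch pathway: the receptors Notch1, Notch2 and Notch3, the ligands Jag1, Jag2 and Dll4, and the target genes Hes1 and Hey1. They were taken by name from the 14218 genes that a probe set of a single gene symbol represented on the arrays, and all 8 were measured. Each is given by its probe set with the highest mean over the 21 arrays. The members had 10 such probe sets in all, since Notch1 and Dll4 had a further one each.

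Notch receptors sit on the cell surface and bind Jagged and Delta-like ligands on neighbouring cells. Binding leads to cleavage of the receptor, and the freed intracellular domain joins the DNA-binding protein RBPJ to switch on genes such as those of the Hes and Hey families. In the liver the pathway is best known for directing precursor cells to the bile duct fate, with JAG1 and NOTCH2 as the human genes behind Alagille syndrome, in which bile ducts are too few.

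Expression was measured in tissue of 9 male young adult Fischer 344 rats. Peritoneal metastases came from 3 rats at day 25 after inoculation. BDEneu tumours, labelled as intrahepatic cholangiocarcinoma, came from 3 rats each at days 10, 15 and 25, and normal right liver lobe was taken from the same rats at each day. BDEneu is a rat bile duct cell line transformed with activated neu (Erbb2), so all tumours derive from 1 line, and every liver came from a tumour-bearing rat. Each of the 7 groups held 3 arrays, 1 rat each, and the metastases shared their rats (rats 7, 8 and 9, replicates 1, 2 and 3) with the day 25 tumours and livers. The descriptions of the day 25 livers name another day than their titles and source names; day 25 was used.

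Values are levels on a log2 scale, on which a difference of 1 is a doubling, and the median of an array lay between 5.98 and 6.06. The tissue labels were checked against marker genes. The bile duct keratin Krt19 averaged 12.42 ± 0.10 in metastases and between 11.99 and 12.37 in the tumour groups, against 5.13 to 6.21 in the liver groups (SD, n = 3 each), and Krt7 was split in the same way. Krt19 varied most in day 25 livers, with an SD of 1.42. Their replicate 1, of rat 7, had a mean of 7.42 over 11 bile duct markers, against 5.82 to 6.64 in the other livers. The mean log2 level of 16 hepatocyte genes was 5.84 to 6.37 in metastases and 7.74 to 11.85 in tumours, against 12.39 to 13.09 in livers, so tumour samples held liver transcripts in unequal amounts and the metastases held few. Pancreatic acinar genes averaged 11.13 in metastasis replicate 2, 8.91 in tumour day 15 replicate 2 and 8.81 in tumour day 25 replicate 3, against at most 6.64 on every other array. The metastasis and tumour of rat 7 had the lowest level of the blood vessel endothelium list among metastases and tumours, 6.62 and 6.79, against 7.65 to 8.13. Replicates within a group correlated at 0.951 to 0.996. In bulk tissue, fewer cells of a type and less RNA per cell cannot be told apart.

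Over all days, 5 of the 8 members were higher and 1 was lower in tumours than in livers, by limma with Benjamini-Hochberg adjustment over the 14218 genes and a threshold of 0.05 for the adjusted p. In that comparison 74.6% of all genes were called, 36.8% higher and 37.8% lower, so a count of 6 of 8 lies near the background. The median difference of the members was 0.36, against -0.03 over all genes. Jag1, Jag2, Hey1, Notch1 and Notch3 were higher in tumours, Notch2 was lower, and Dll4 and Hes1 did not pass. By day, Jag1 was called at days 10, 15 and 25, Jag2 at days 10 and 25, and Notch1 and Hey1 at days 10 and 15. Notch2 was called at day 10, and Notch3 and Hes1 at day 25, but for no member was the change of the tumour-liver difference between day 10 and day 25 called.

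**Figure D1:**
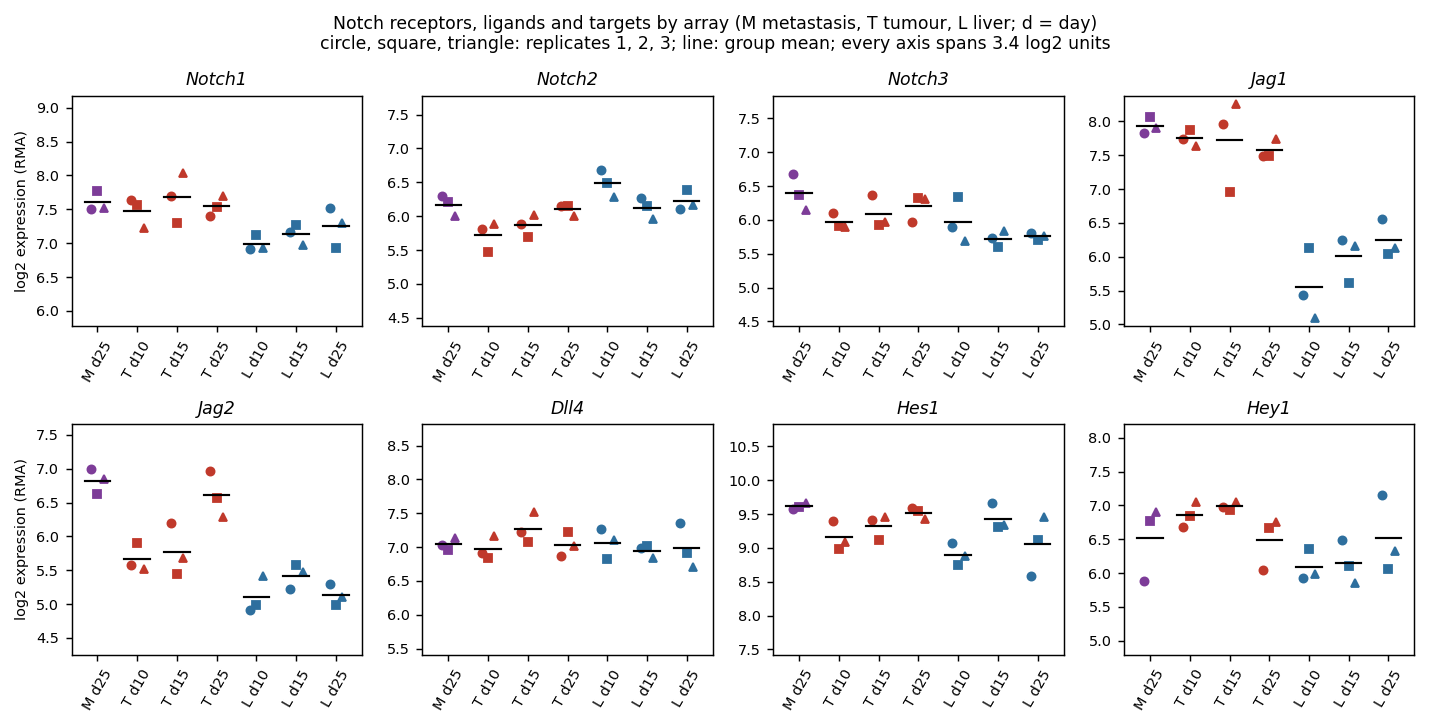
Log2 level of each of the 8 members on every array, by tissue and day, with 1 point per rat and the group mean as a line. The 3 metastases and 9 tumours lie above the 9 livers for Jag1 without overlap, and for Jag2 the metastases and day 25 tumours lie above all other arrays.

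Notch1 is a receptor found on many cell types. Its log2 level was 7.63, 7.57 and 7.23 in day 10 tumours, 7.69, 7.29 and 8.04 in day 15 tumours and 7.40, 7.53 and 7.70 in day 25 tumours. It was 6.92, 7.12 and 6.93 in day 10 livers, 7.16, 7.27 and 6.97 in day 15 livers and 7.52, 6.93 and 7.29 in day 25 livers. Every tumour of days 10 and 15 was above every liver of its day, while at day 25 the groups overlapped because liver replicate 1 reached the level of the tumours. The difference over all days was 0.44 ± 0.10 (SE; limma adjusted p = 0.00101), and 8 of 9 rats had the higher level in the tumour. By day it was 0.49 at day 10, 0.54 at day 15 and 0.30 at day 25 (limma adjusted p = 0.0266, 0.0178 and 0.178). After another quantile normalization the values of days 10 and 15 were 0.29 and 0.40 and did not pass (limma adjusted p = 0.177 and 0.0682). The day 10 call was also lost without tumour replicate 1 or 2 or liver replicate 1 or 3, and the day 15 call without tumour or liver replicate 3 (adjusted p = 0.0707 to 0.114 over these). A further Notch1 probe set gave 0.66 (limma adjusted p = 0.000128), and its levels correlated with those of the first at 0.83 over the 21 arrays.

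Notch2, the receptor tied to bile duct formation, was the member that fell. It stood at 5.80, 5.47 and 5.88 in day 10 tumours, against 6.69, 6.49 and 6.28 in day 10 livers. All 3 tumours lay below all 3 livers at that day, and the difference was -0.77 ± 0.13 (SE; limma adjusted p = 0.000158). Day 15 tumours were at 5.89, 5.69 and 6.01, against 6.26, 6.15 and 5.96 in the livers of that day. At day 25 tumours were at 6.15, 6.15 and 6.00, against 6.10, 6.39 and 6.17 in livers, and the difference of -0.12 had an adjusted p of 0.477 by limma. The gap was thus largest at day 10 and was not called at the later days. The change in the tumour-liver difference between day 10 and day 25, 0.65 ± 0.19, missed the threshold (limma adjusted p = 0.0993). Notch2 lay below the array median on 9 of 21 arrays, so its level was in the lower part of the scale.

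Notch3 is a receptor known from pericytes and vascular smooth muscle. Its levels were 6.68, 6.37 and 6.14 in metastases and 5.97, 6.33 and 6.31 in day 25 tumours, against 5.81, 5.70 and 5.77 in day 25 livers. Every metastasis and tumour of that day was above every liver of that day. In day 10 tumours Notch3 was at 6.10, 5.92 and 5.90, against 5.89, 6.34 and 5.69 in day 10 livers, and there the groups overlapped. The difference over all days was 0.27 ± 0.10 (SE; limma adjusted p = 0.0195). At day 25 it was 0.45 (limma adjusted p = 0.0355), a call lost without tumour replicate 2 or 3 or any 1 of the livers of that day (adjusted p = 0.0517 to 0.112). Of 11 marker genes of pericytes and smooth muscle 9 were also higher in tumours and none lower, at a list mean of 7.27 to 8.76, against 6.39 to 7.55 in livers. The Pearson correlation of Notch3 with this list was -0.23 over the 12 metastases and tumours (0.27 without the 2 arrays of rat 7) and -0.16 over the 9 livers, points that share rats and days. The metastasis of rat 7 had the highest Notch3 level, 6.68, and the lowest list mean of the metastases and tumours, 7.11. The part of these cells in the Notch3 result was not tested. Notch3 was below the array median on 13 of 21 arrays.

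Jag1, the Jagged ligand of Alagille syndrome, showed the largest difference of the 8 members between tumour and liver over all days. Its log2 level was 7.74, 7.87 and 7.64 in day 10 tumours, 7.95, 6.96 and 8.26 in day 15 tumours and 7.49, 7.49 and 7.74 in day 25 tumours. Livers were at 5.43, 6.13 and 5.10 at day 10, at 6.24, 5.62 and 6.15 at day 15 and at 6.56, 6.04 and 6.13 at day 25. The lowest tumour, day 15 replicate 2, was still above the highest liver, and Jag1 was the 1 member of the 8 whose 9 tumours and 9 livers did not overlap. How many of all genes were split in this way was not counted. The difference over all days was 1.75 ± 0.17 (SE; 3.36-fold; limma adjusted p = 7.5e-08). All 9 rats had more Jag1 in the tumour than in their own liver, by 0.94 to 2.54.

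The Jag1 difference was 2.19 at day 10, 1.72 at day 15 and 1.33 at day 25, each called by limma (adjusted p = 9.17e-06, 0.000116 and 0.00106). The liver mean was 6.24 ± 0.28 at day 25 and 5.56 ± 0.53 at day 10 (SD, n = 3 each), while the tumours averaged 7.58 ± 0.15 at day 25 and 7.75 ± 0.12 at day 10. Neither the difference of 0.69 between day 25 and day 10 livers (limma adjusted p = 0.146) nor the change of the tumour-liver difference, -0.86 (limma adjusted p = 0.281), passed. Of 11 bile duct markers 9 were higher in tumours and 1 lower: their mean log2 level was 9.57 to 10.22 in tumours, against 5.82 to 7.42 in livers. Of 10 myofibroblast markers 9 were also higher in tumours and 1 lower, with a mean level of 11.02 to 12.13 in tumours, against 7.55 to 9.04 in livers. Over the 12 metastases and tumours Jag1 had a Pearson correlation of 0.30 with the bile duct list and of 0.36 with the myofibroblast list (0.51 and 0.85 without the 2 arrays of rat 7). In the 9 livers the coefficients were 0.73 and 0.69. These include the liver of rat 7, which had the highest Jag1 level of the livers, 6.56, and their highest list means, 7.42 and 9.04. The points of all these correlations share rats and days, and the part of either cell type in the Jag1 result was not tested.

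Jag2, the other Jagged ligand, was highest late. Its level was 6.99, 6.63 and 6.84 in metastases. Tumours were at 5.57, 5.90 and 5.52 at day 10, at 6.20, 5.44 and 5.68 at day 15 and at 6.97, 6.56 and 6.29 at day 25, and the 9 livers ran from 4.92 to 5.57 with a median of 5.22. All metastases and day 25 tumours were above all earlier tumours and all livers. The tumour-liver difference was 0.56 at day 10 (limma adjusted p = 0.0267) and 0.35 at day 15 (adjusted p = 0.156). At day 25 it was 1.48 ± 0.20 (SE; 2.79-fold; adjusted p = 2.02e-05). The day 10 call was lost without tumour replicate 2 or liver replicate 1 or 2 of that day (limma adjusted p = 0.0816 to 0.115).

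Day 25 tumours exceeded day 10 tumours in Jag2 by 0.95 ± 0.20 with no overlap, which gave an unadjusted p of 0.000241 and an adjusted p of 0.114 by limma over all genes. Without tumour day 25 replicate 3, which carried pancreatic transcripts, the difference was 1.11 and passed (limma adjusted p = 0.0354). It also passed without all 3 arrays with such transcripts (limma adjusted p = 0.0155). In the other 27 of 29 alternatives the difference was not called. Over the 12 metastases and tumours, Jag2 levels ran opposite to the hepatocyte list, with a Pearson correlation of -0.85 (-0.81 without the 2 arrays of rat 7). Those arrays share rats and days, and the part of liver tissue in the sample was not tested. Jag2 lay below the array median on 14 of 21 arrays.

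Dll4, a Delta-like ligand known from sprouting endothelium, was not called in any of the 9 comparisons. Its levels were 6.85 to 7.52 in the 9 tumours with a median of 7.08, against 6.71 to 7.36 with a median of 6.99 in the 9 livers. The difference over all days was 0.09, with a 95% confidence interval from -0.10 to 0.29 (limma adjusted p = 0.371). At day 15 tumours had 7.22, 7.08 and 7.52, against 6.99, 7.02 and 6.85 in livers. These did not overlap, and the difference of 0.32 had an unadjusted p of 0.0604 and an adjusted p of 0.102 by limma. The further Dll4 probe set gave 0.20 (limma adjusted p = 0.0883).

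Hes1, a repressor that is the classic direct target of Notch signalling, was at 9.57, 9.60 and 9.66 in metastases. Tumours had 9.40, 8.98 and 9.09 at day 10, 9.41, 9.12 and 9.45 at day 15 and 9.58, 9.54 and 9.42 at day 25. Livers had 9.07, 8.75 and 8.88 at day 10, 9.66, 9.31 and 9.34 at day 15, and 8.59, 9.11 and 9.46 at day 25. The day 25 livers spread more widely than any tumour group, and tumours and livers overlapped at every day. Over all days the difference was 0.20, with a 95% interval from -0.01 to 0.42 (limma adjusted p = 0.0778). At day 25 it was 0.46 and passed (limma adjusted p = 0.037), but without liver day 25 replicate 1 it was 0.23 (adjusted p = 0.219), and it was also lost without tumour replicate 1 or 2 or liver replicate 2 (adjusted p = 0.0583 to 0.0968). This day 25 call was lost in 9 of 30 alternatives. They included another quantile normalization, median centring and the compared groups only (limma adjusted p = 0.0762, 0.0507 and 0.161). Over all days Hes1 passed without tumour day 15 replicate 2, liver day 15 replicate 1 or liver day 25 replicate 3 (limma adjusted p = 0.0123 to 0.0484).

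The 250 bases before the Hes1 start site are shown because Hes1 is the target whose promoter RBPJ is known to bind. The sequence is that of RefSeq (GRCr8, chr11:84213046-84213295, minus strand), and capitals mark matches to TGGGAA, the core of the RBPJ motif. For comparison the same stretch of Nrarp (GRCr8, chr3:28390495-28390744, plus strand), another Notch target described below, is given.
Hes1: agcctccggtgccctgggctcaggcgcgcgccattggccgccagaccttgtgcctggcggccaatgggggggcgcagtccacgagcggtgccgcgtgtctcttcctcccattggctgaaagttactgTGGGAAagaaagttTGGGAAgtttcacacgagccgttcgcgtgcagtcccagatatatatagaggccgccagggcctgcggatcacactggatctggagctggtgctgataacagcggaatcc
Nrarp: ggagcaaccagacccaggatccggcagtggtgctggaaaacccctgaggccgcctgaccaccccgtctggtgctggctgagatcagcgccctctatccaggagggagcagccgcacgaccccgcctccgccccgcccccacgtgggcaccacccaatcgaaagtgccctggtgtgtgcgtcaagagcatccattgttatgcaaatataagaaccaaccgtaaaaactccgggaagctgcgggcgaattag
The Hes1 stretch held 2 matches on the strand of the gene, 123 and 109 bases before the start site. Both strands were searched, and of 33469 promoters of that length 22.1% held at least 1 match and 2.71% held 2 or more. The Hes-type motif CACGAG also occurred 2 times in Hes1, which 0.206% of promoters matched, and did not overlap the capitals. The table listed promoters of 6 of the 8 members, without Dll4 and Hey1. Notch1, Notch2, Notch3, Jag1 and Jag2 had no match to TGGGAA in this window, nor did Nrarp. Of the other pathway genes looked up, Hey2 had 2 matches, and Rbpj had 1 and 2 in the windows of its 2 start sites, while Heyl and Dtx4 had none. The 2 Rbpj windows overlap, and the 1 match of the first is also counted in the second. The letters describe the sequence and show no binding.

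Hey1, a repressor of the same family best known from vessels, was higher in tumours than in livers over all days. The difference was 0.53 (limma adjusted p = 0.00853) and was called in all 30 alternatives. Tumours had 6.69, 6.84 and 7.05 at day 10 and 6.97, 6.94 and 7.06 at day 15, against 5.93, 6.36 and 5.98 in day 10 livers and 6.49, 6.11 and 5.85 in day 15 livers. The groups did not overlap at either day, and the differences were 0.77 and 0.84 (limma adjusted p = 0.0297 and 0.0217). The day 10 call was lost without tumour replicate 2 or 3 or liver replicate 1 or 3 (adjusted p = 0.063 to 0.0906), and the day 15 call without tumour replicate 3 or liver replicate 2 or 3 (adjusted p = 0.0545 to 0.0892). At day 25 Hey1 was at 5.88, 6.77 and 6.91 in metastases and 6.05, 6.67 and 6.75 in tumours, against 7.15, 6.05 and 6.33 in livers. The tumour-liver difference at day 25 was -0.02 (limma adjusted p = 0.96). Its change between day 10 and day 25, -0.79, was not called (limma adjusted p = 0.323).

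Rat 7 stood apart in Hey1. Its metastasis and its tumour were the lowest of the 12, its liver was the highest of the 9, and its tumour was 1.1 below its liver, whereas the other 8 rats had 0.42 to 1.21 more Hey1 in the tumour. Over tumours and metastases, Hey1 correlated with the blood vessel list at 0.91, and at 0 without the 2 arrays of rat 7. With the myofibroblast list it correlated at 0.91, and at 0.30 without them. The part of these cells in the Hey1 levels was not tested.

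**Figure D2:**
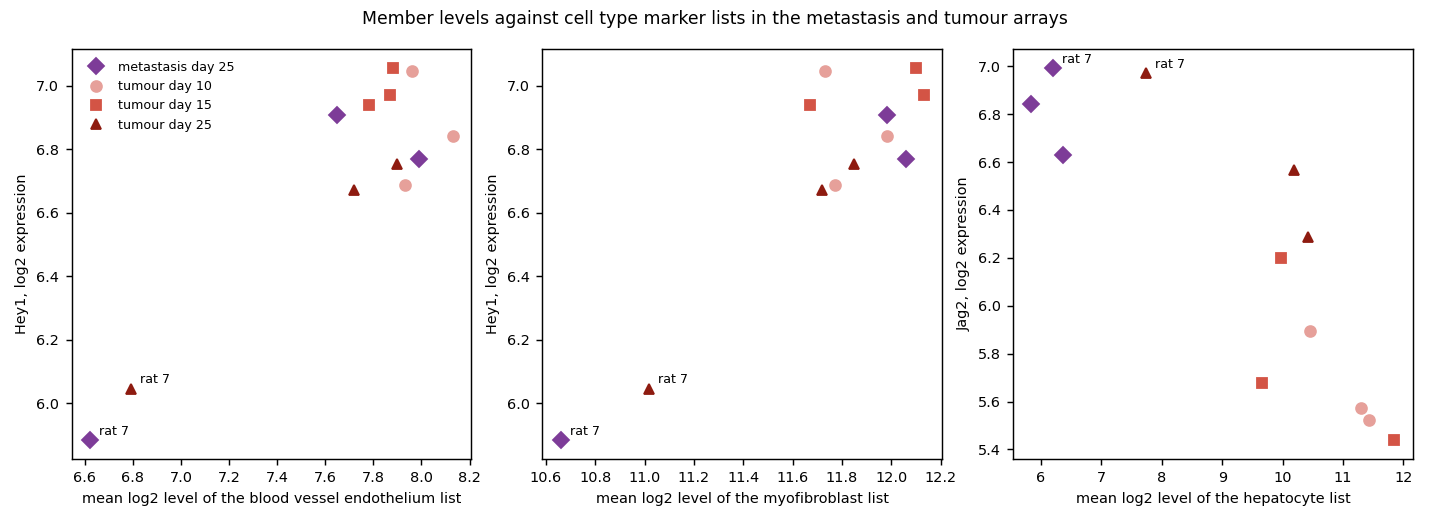
Log2 level of Hey1 against the mean log2 level of the blood vessel endothelium list and of the myofibroblast list, and of Jag2 against that of the hepatocyte list, with 1 point for each of the 3 metastases and 9 tumours. The metastasis and tumour of rat 7 stand apart at the low end of both Hey1 panels, and the Jag2 levels are highest where the hepatocyte list is lowest.

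By day, 4 members were higher and 1 was lower in tumours than in livers at day 10, where 58.4% of all genes were called, 30.4% higher and 28% lower. At day 15, 3 were higher and none was lower, against 51.8% of all genes, 28.2% higher and 23.6% lower. At day 25, 4 were higher and none was lower, against 50.1% of all genes, 27.7% higher and 22.4% lower. Jag1 was the 1 member called at all 3 days. Leaving out single arrays moved the counts by more than 1.5 times: the day 10 count was 2 without tumour replicate 2 or liver replicate 1 and 3 without liver replicate 3, and the day 15 count was 1 without tumour or liver replicate 3. The day 25 count was 2 without tumour replicate 2 or liver replicate 1 or 2.

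**Figure D3:**
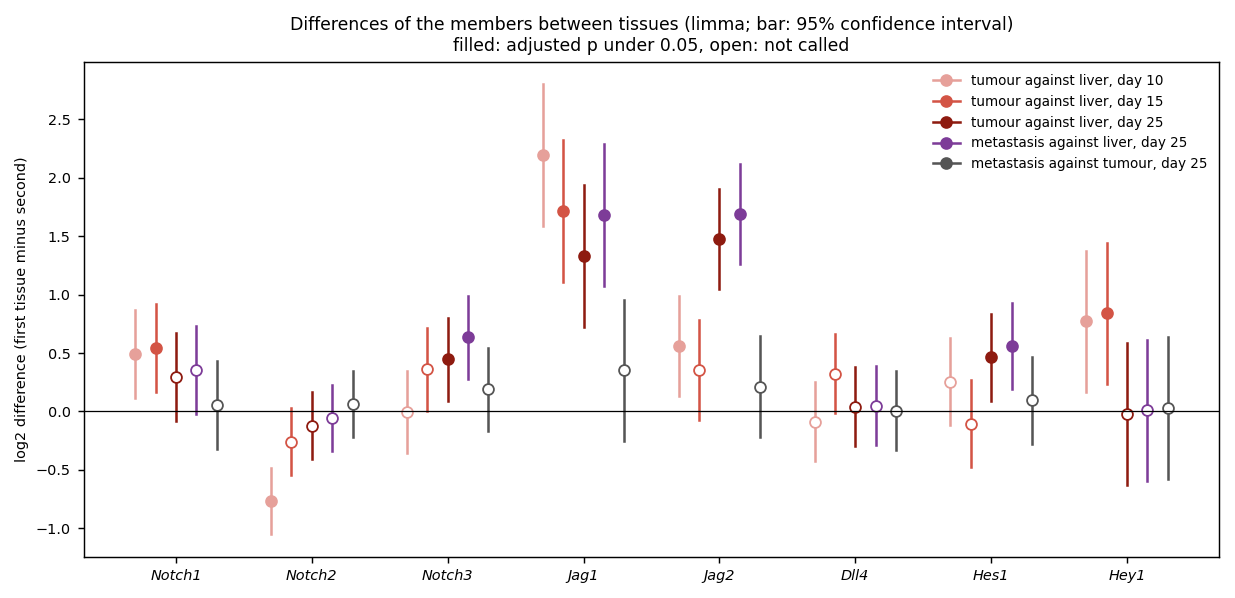
Log2 difference of each of the 8 members in 5 comparisons, with the 95% confidence interval as a bar and filled points for adjusted p under 0.05. Jag1 is above 0 in all 4 comparisons with liver, the Jag2 difference from liver is larger at day 25, in metastases and tumours, than at days 10 and 15, and all 8 intervals of metastasis against tumour include 0.

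Metastases were set against livers and against tumours of the same 3 rats. Of the 8 members 4 were higher in metastases than in livers and none was lower, where 57% of all genes were called, 33.4% higher and 23.6% lower. Jag1 was at 7.82, 8.06 and 7.90 in metastases, above all day 25 livers, and the difference was 1.69 ± 0.29 (SE; limma adjusted p = 0.000103). Jag2 also differed by 1.69, with an adjusted p of 3.11e-06. Notch3 was 0.64 higher (adjusted p = 0.00393) and Hes1 was 0.56 higher (adjusted p = 0.0121, and 0.0775 without liver replicate 1). The Hes1 call was also lost after another quantile normalization and with the compared groups only (limma adjusted p = 0.0539 and 0.0905). Notch1 was 0.35 higher and not called (adjusted p = 0.101), but passed without liver replicate 1 (0.49, adjusted p = 0.0368) and with the mean of its probe sets (0.45, adjusted p = 0.0369). This comparison shares its livers with that of day 25 tumours, where the same 4 genes differed by 1.33, 1.48, 0.45 and 0.46.

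Between metastases and day 25 tumours none of the 8 members was called by limma, where 0.338% of all genes were called, and none had an unadjusted p under 0.05. The largest difference was that of Jag1, 0.35 with a 95% interval from -0.26 to 0.96 (adjusted p = 0.85). Jag1 and Jag2 were above the tumour in all 3 rats, by 0.16 to 0.57 and by 0.02 to 0.55. The intervals do not show that the tissues are alike.

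Between day 25 and day 10 tumours none was called by limma, where 0.0563% of all genes were, and 2 members (Notch2 and Jag2) had an unadjusted p under 0.05. Between day 25 and day 10 livers none was called, where 9.1% of all genes were, and 1 member (Jag1) had an unadjusted p under 0.05. For the change of the tumour-liver difference none was called, where 1.46% of all genes were, and 3 members (Notch2, Jag1 and Jag2) had an unadjusted p under 0.05. Over all genes that change was called for 208 genes, and for 402 with the rat as a replicate block. The shares of all genes above are at the adjusted threshold, so they are no background for the counts at the unadjusted p. No share of all genes at the unadjusted p was taken.

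The order of the 7 group means was close for most members. Over all 8 members, neighbours in that order were separated without overlap of their arrays in 3 places: Jag1 in day 25 tumours over day 25 livers, Jag2 in day 25 over day 15 tumours, and Notch3 in day 10 tumours over day 25 livers. The same was not counted over all genes, so the 3 places have no background.

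The rest of the pathway was taken as a list of 60 genes in 8 groups, of which 49 were measured. Over all days 23 were higher and 20 lower in tumours than in livers, which is 87.8% of those measured, against 74.6% of all genes. The median difference was 0.06, against -0.03 over all genes. The groups below were not tested as groups, and each count stands beside a background of 36.8% of all genes called higher and 37.8% called lower.

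In the nucleus, most measured genes of a list that joined RBPJ, its coactivators and its corepressors were higher in tumours. Rbpj, the DNA-binding protein of the pathway, was at 9.36, 9.54 and 9.40 in day 10 tumours, 9.65, 9.32 and 9.63 in day 15 tumours and 9.34, 9.34 and 9.15 in day 25 tumours. Livers had 7.69, 8.15 and 7.40 at day 10, 7.81, 8.07 and 7.57 at day 15 and 8.19, 7.86 and 7.89 at day 25. The groups did not overlap. Its difference over all days was 1.57 ± 0.10 (SE; limma adjusted p = 3.88e-10), and further probe sets gave 0.96 and 1.57. The nuclear group had 5 of 6 measured genes higher and none lower, where 36.8% of all genes were higher. They included the coactivator Maml2 at 1.30 and, on the side of the corepressors, the deacetylase Hdac1 at 1.09. Further Maml2 probe sets gave 0.30, -0.16 and -0.07, so its size rests on the probe set.

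Genes of receptor turnover and antagonists were split, with 4 of 7 higher and 2 lower. Nrarp, a Notch target that limits the pathway by acting on the intracellular domain, had 7.61, 7.63 and 7.36 in day 10 tumours, 7.79, 7.63 and 7.77 in day 15 tumours and 7.74, 8.13 and 7.81 in day 25 tumours. Livers had 5.80, 5.94 and 5.64 at day 10, 6.20, 6.05 and 5.81 at day 15 and 5.98, 5.83 and 6.21 at day 25. Every tumour was above every liver, by 1.78 ± 0.08 on average (SE; limma adjusted p = 1.81e-11), while its further probe sets gave 1.02 and -0.11. Dtx4, a Deltex ubiquitin ligase, was higher by 1.63 (limma adjusted p = 1.4e-10), with further probe sets at 0.72 and -0.21. Numbl, a relative of the Notch inhibitor Numb, was higher by 0.67.

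**Figure D4:**
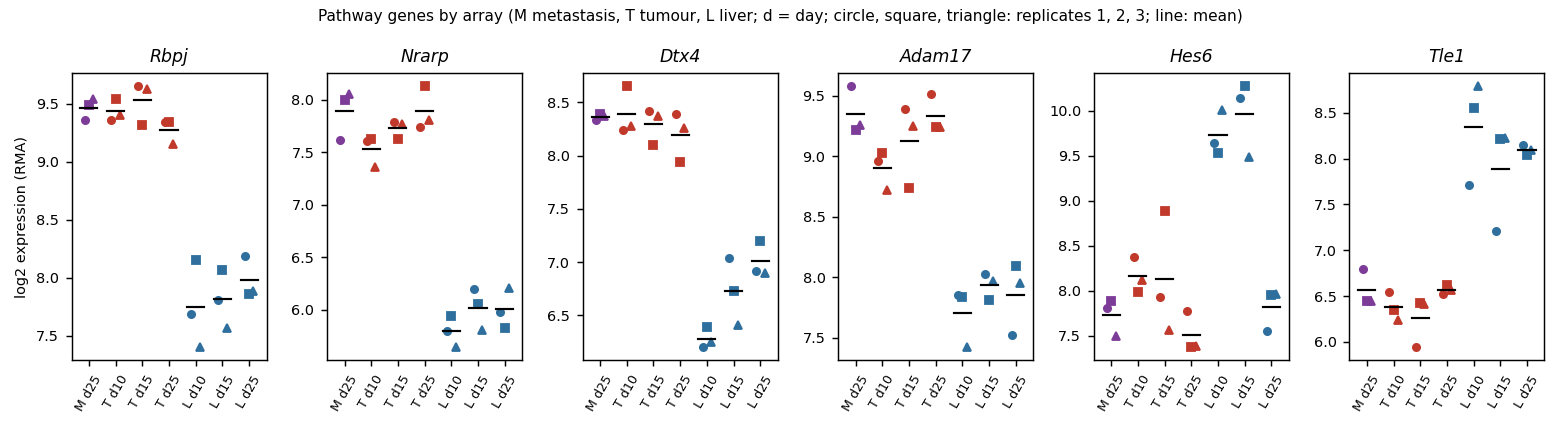
Log2 level of 6 pathway genes outside the 8 members on every array, by tissue and day. Rbpj, Nrarp, Dtx4 and Adam17 are higher in metastases and tumours than in livers, Tle1 is lower, and Hes6 in the day 25 livers is at the level of the tumours.

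Genes that act on receptors and ligands outside the nucleus were split. Of 7 measured genes of receptor cleavage 2 were higher and 4 lower: Adam17, a protease that cuts the receptor outside the cell, was higher by 1.29 ± 0.11 (SE; limma adjusted p = 1.21e-08), and the γ-secretase genes Psen2 and Aph1a were lower, with differences of -1.06 and -0.46. Of 4 genes of sugar transfer, 3 were higher and 1 was lower. Poglut1, which adds glucose to the receptor, was higher by 1.10, and the fringe genes Mfng and Lfng were both higher by 0.50. All 3 measured ligand ubiquitin ligases were lower, with Mib2 at -0.45, Neurl1 at -0.24 and Neurl1b at -0.14. The Neurl1b call (limma adjusted p = 0.0463) was lost in 18 of the 29 alternatives it could be tested in. Its group means, 4.94 to 5.20, lay below the array medians. Mib1 of the same list was not measured. Of the other receptors and ligands 5 of 5 were lower, where 37.8% of all genes were lower, with -0.39 for Notch4, -0.29 for Dll3 and -0.24 for Dlk2. Further Notch4 probe sets gave -0.23 and 0.37, so its direction depends on the probe set. With the mean of its probe sets the Notch4 call was lost (limma adjusted p = 0.0777), and the Dll1 call was lost in 8 of 30 alternatives. Group means of the 5 genes ran from 5.46 to 6.40, near or below the array medians, so these are small differences at low levels.

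Among the other Hes, Hey and Tle factors 5 of 11 were higher and 4 were lower. Tle1, a corepressor of Hes proteins, was at 6.24 to 6.55 in day 10 tumours, against 7.71 to 8.79 in day 10 livers, and differed by -1.71 over all days (limma adjusted p = 3.5e-08). Bhlhe40, a related repressor, was higher by 0.92. Hes6, a relative of Hes1, was at 7.77, 7.37 and 7.39 in day 25 tumours, against 7.55, 7.95 and 7.96 in day 25 livers, and these overlapped. It was at 8.37, 7.99 and 8.12 in day 10 tumours, against 9.64, 9.53 and 10.01 in day 10 livers, with no overlap. Day 25 livers differed from day 10 livers by -1.91 (limma adjusted p = 0.000782). The tumour-liver difference was -0.31 at day 25 and -1.57 at day 10 (limma adjusted p = 0.364 and 0.000159), and the change of 1.26 was not called (limma adjusted p = 0.114).

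Other reported targets had 5 of 7 genes higher and 1 lower, where 36.8% of all genes were higher. Ccnd1, the cyclin of early G1, was higher by 2.33 ± 0.22 and Myc by 2.01 ± 0.29 (SE; limma adjusted p = 5.82e-08 and 9.52e-06). Both are also targets of many other pathways. Between metastases and tumours, and between day 25 and day 10 tumours, none of the 49 pathway genes was called. In livers, Adam10 and Dtx4 were higher and Numb and Hes6 lower at day 25 than at day 10, 4 of 49 genes, against 9.1% of all genes.

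**Figure D5:**
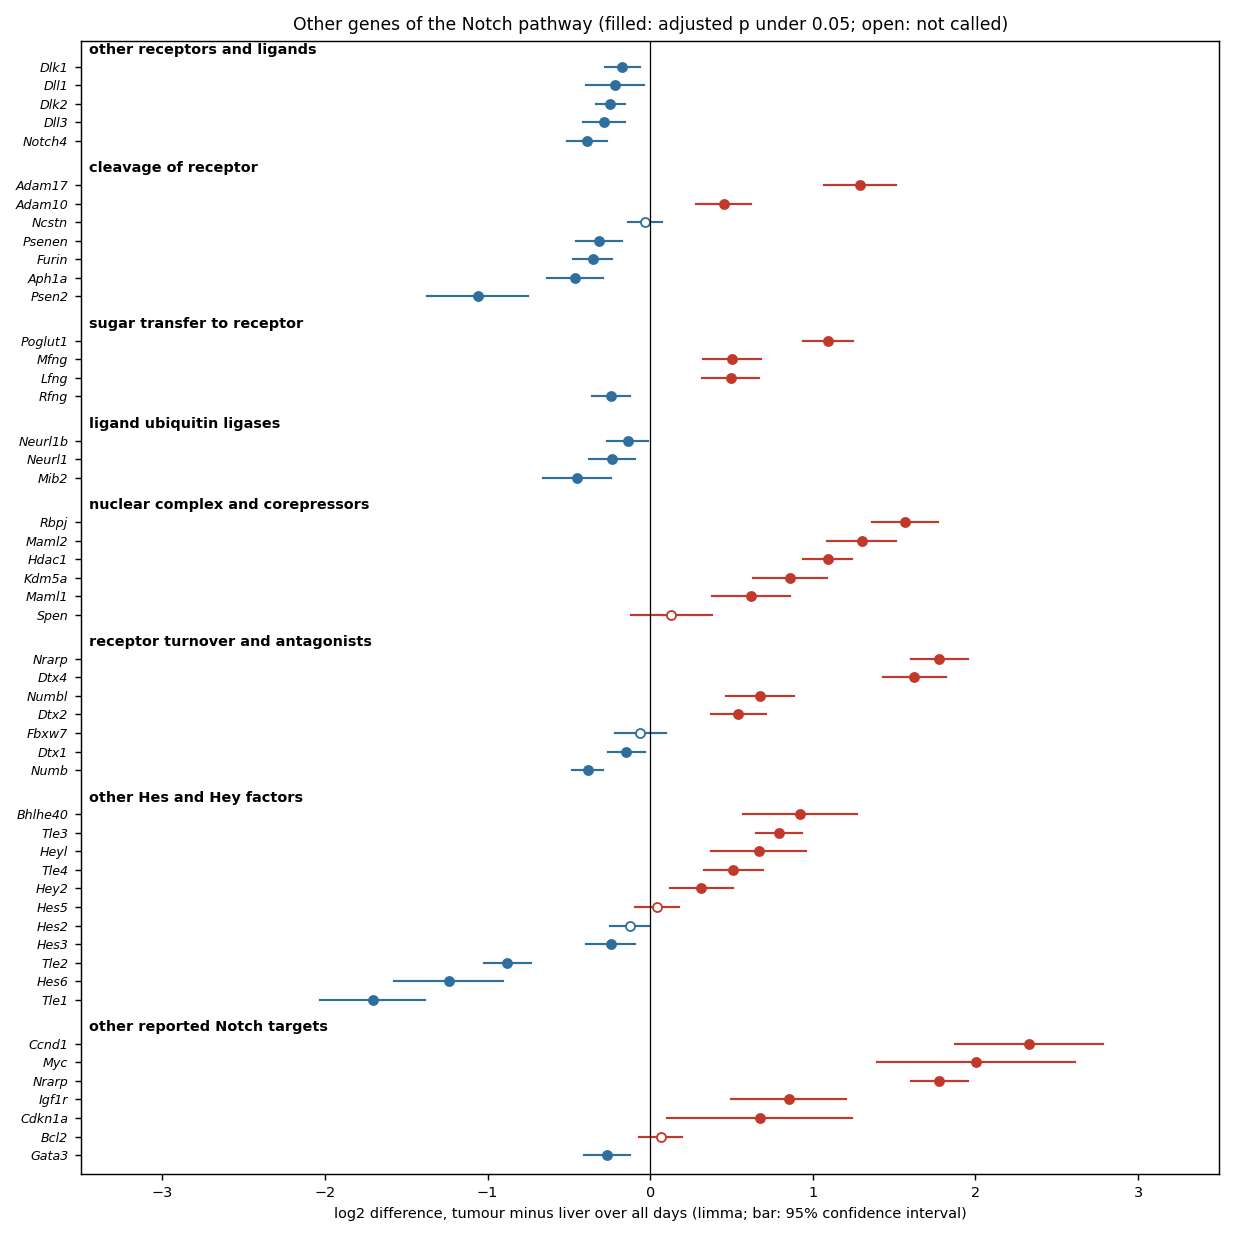
Log2 difference between tumours and livers over all days for the measured pathway genes, grouped by role, with the 95% confidence interval as a bar and filled points for adjusted p under 0.05. The nuclear group lies above 0, the ligand ubiquitin ligases and the other receptors and ligands lie below 0, and the remaining groups fall on both sides.

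The members did not all rise and fall together within tumours. Over the 12 tumour and metastasis arrays, the highest Pearson correlations of all pairs were 0.86 for Notch2 and Hes1, 0.78 for Jag2 and Hes1, and 0.78 for Notch1 and Jag1. Jag1 and Jag2 had 0.18, and the lowest was -0.68 for Jag2 and Hey1. In the 9 livers the same pairs had -0.23, 0.14, 0.60, -0.12 and -0.02. All pairs among Notch2, Notch3, Jag2 and Hes1 correlated at 0.60 to 0.86 over the 12 arrays, and at -0.78 to 0.41 in the livers. With the hepatocyte list, Notch2, Notch3, Jag2 and Hes1 correlated at -0.67, -0.52, -0.85 and -0.75 over the 12 arrays. The part of liver tissue in these pairs was not tested. These points share rats and days, and the coefficients are descriptions.

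The genes most like each member over those 12 arrays were found by Pearson correlation among all genes. For Jag2 they were Crybg3, Alox5ap and Asap1 (0.972, 0.972 and 0.969), and for Jag1 Cand2, Gtf2i and Six5 (0.89, 0.886 and 0.885). For Hes1 they were Eppk1, Secisbp2 and Adar (0.944, 0.931 and 0.93). For Hey1 they were Igip, Lum and Tmed8 (0.967, 0.958 and 0.952). These Hey1 values include the 2 arrays of rat 7, which had the lowest Hey1 levels, and were not computed without them. For Notch1 the first was Arid1a (0.911), for Notch2 Ptk2b (0.928), for Notch3 Spry3 (0.836) and for Dll4 Siglec10 (0.884). In the 9 livers the Jag2 genes correlated at -0.468, 0.08 and 0.102 with it, and the Hey1 genes at -0.282, 0.405 and 0.767.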

How the data were processed

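Total RNA of snap-frozen tissue was hybridised as biotin-labelled cRNA to 21 Affymetrix arrays, 1 per tissue and rat, per the labels' protocols. Per the submitters' processing notes, the authors used RMA, and they deposited a log2 level for every probe set. The RMA program and version were not given in the sources used here. RMA aligns the distributions of the arrays, so a shift of most genes is partly removed. No detection calls were used, and no scan date or batch is given, so batches were not analysed here. The number of arrays limits the precision: the median SD of a gene within a group was 0.11 to 0.177.

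Of 31099 probe sets 20832 had 1 gene symbol in the platform annotation, 20764 of them matched by identifier to the GRCr8 gene table, and the highest-mean probe set per gene left 14218 genes. Groups came from titles, and differences were tested with limma 3.58.1 in R 4.3.3 (lmFit and eBayes, 7 group means) in 9 comparisons, with Benjamini-Hochberg adjustment over all genes. The members, lists and tests were chosen with earlier results of these data known. Named pathway genes are up to 3 called genes per group with the largest change between tumours and livers over the pooled days, and those called in the tests over time or in metastasis against tumour. The likeness rule took 3 genes per member. The script was tested on simulated data. The rat number in the labels pairs tissues of 1 animal, and deviations of same-rat tumours and livers correlated at 0.04 to 0.3. For rats 7, 8 and 9, those of metastases and tumours correlated at 0.58, 0.11 and 0.04. Those of metastases and livers correlated at 0.16, 0.15 and 0.05. Alternatives were another normalization, centring, probe sets averaged, a filter on dim genes, another prior, the compared groups only, the rat block and arrays left out. Leaving out both arrays of rat 7 was chosen after seeing the data.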

Additional observations from a re-analysis of the deposited data

Results flagged for a closer look

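Dtx4, a Deltex ubiquitin ligase of the pathway list, was called for the change of the tumour-liver difference between day 10 and day 25. The change was -0.924 on the log2 scale (limma adjusted p = 0.0495 for the interaction). Dtx4 was the 1 called gene of the 49 measured, which is 2.04%, against 1.46% of all genes. Its levels were 8.39, 7.94 and 8.26 in day 25 tumours, against 6.92, 7.20 and 6.90 in day 25 livers. At day 10 they were 8.24, 8.65 and 8.28 in tumours, against 6.20, 6.39 and 6.25 in livers. No tumour overlapped a liver, and the livers were lower at day 10. The call was lost in 21 of 30 alternatives, and the value was -0.182 with the mean of its probe sets. Its further probe sets gave 0.27 and 0.11 (limma adjusted p = 0.613 and 0.765), so the direction depends on the probe set.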

How the results depend on the processing

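Over 30 alternatives, 49 of 2142 recomputed values for the members changed their call and none reversed. The calls of Jag1 against liver held in all of its alternatives. With the rat as a replicate block (correlation 0.136), 0 calls of members changed, and the count of members over all days stayed at 6. The count of members called in tumour against liver at day 25 was 2 after another quantile normalization, after median centring, without the 3 arrays with pancreatic transcripts, and with dim genes left out, a filter that left 6 members to test. With that filter the count in metastasis against liver was 2. Without the 3 pancreatic arrays it was 1 (Jag2) for day 25 against day 10 tumours and 1 (Jag2) for the change of the tumour-liver difference. The causes were not tested, except that the filter tests fewer genes. Leaving out 1 array at a time gave 6 to 7 members over all days, 2 to 5 at day 10, 1 to 4 at day 15, 2 to 4 at day 25, 0 to 0 for metastasis against tumour, 4 to 4 for metastasis against liver (without liver day 25 replicate 1, Notch1 in place of Hes1), 0 to 1 for day 25 against day 10 tumours, 0 to 0 for livers and 0 to 0 for the change. Gata3, a reported target, was -0.26 in tumour against liver and 0.012 with the mean of its probe sets; the cause was not tested. Low levels near or below the array median limit Notch2, Notch3 and Jag2, and among the pathway genes Neurl1b and the other receptors and ligands.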
